A study of Homo sapiens with 39 samples.

Results

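The genes described here are the collagen chains, the laminin chains and the integrin subunits, whose products build the extracellular matrix and bind cells to it. They were found by symbol: every protein-coding gene named as a numbered collagen alpha chain (COL), a laminin alpha, beta or gamma chain (LAMA, LAMB, LAMC), an integrin alpha subunit (ITGA) or an integrin beta subunit (ITGB). Of 82 such genes, 54 had at least 10 counts in at least 3 of the 39 libraries, among 19633 genes that met the same minimum. They were 25 of 44 collagen chains, 10 of 12 laminin chains and 19 of 26 integrin subunits. The rule used no contrast between groups. C4-2B, a castration-resistant prostate cancer (CRPC) cell line derived from LNCaP, was cultured as a single parental line in RPMI with fetal bovine serum, and mRNA from whole cultures was sequenced. In the first experiment (21 libraries, the panel), cells were treated for 5 days with DMSO as the vehicle, with an androgen receptor pathway inhibitor (ARPi), with a PARP inhibitor (PARPi) or with both. The ARPi were abiraterone acetate at 5 µM and enzalutamide at 20 µM, the PARPi were olaparib at 1 µM and talazoparib at 10 nM, and the pairs were abiraterone with olaparib and enzalutamide with talazoparib at the same doses. In the second experiment (18 libraries, the time course), cells received DMSO, 1 µM olaparib or 5 µM olaparib for 1 or 5 days. Each of the 13 groups held 3 replicate libraries, named A to C in the panel and 1 to 3 in the time course. The comparisons ask how each drug class, alone and combined, and the dose and duration of olaparib changed these genes.

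Collagens are trimers of alpha chains. Fibrillar collagens such as types I, III and V form the banded fibrils of connective tissue, network collagens such as type IV form the sheet of the basement membrane, and FACIT, beaded filament, anchoring, multiplexin and transmembrane collagens decorate fibrils, link matrix layers or anchor cells. Laminins are cross-shaped trimers of an alpha, a beta and a gamma chain that polymerise on the cell surface and start a basement membrane. Integrins are receptors made of an alpha and a beta subunit. The alpha subunit largely sets the ligand, with separate groups for collagen, for laminin, for ligands bearing the RGD sequence and for leukocyte ligands. The benign prostate gland rests on a basement membrane held by basal cells, and prostate cancers lose the basal layer and much of the chain repertoire that goes with it.

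The total count per library lay between 26932205 and 49833473, with a median of 37223200. All 10 markers of prostate luminal epithelium had at least 416 counts in every library. Markers of other cell types differed in level. VWF of endothelium had 266 to 789 counts per library, and TAGLN and PDGFRB on the fibroblast list had 89 to 245 and 37 to 109 counts. ACTA2 of that list had 4 to 163 counts and basal KRT15 0 to 85. Basal KRT5 and TP63 reached at most 2 counts, and fibroblast LUM, DCN and FAP reached at most 2 counts in any library. Of the 54 genes, 26 share exon bases with another annotated gene, 20 of them with genes on the opposite strand only, which the strand-marking library kit is designed to separate. ITGA1 shares 499 exon bases with the protein-coding gene PELO on the same strand, so its counts are uncertain. No label or method states that replicates were separate cultures, so the p-values measure the spread between these libraries, which may be technical. In bulk RNA, a change in the share of cells that express a gene and a change in RNA per cell cannot be told apart.

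The untreated cells expressed a short list of these genes at high level. Levels between genes are given as CPM, each count scaled to its library total adjusted by TMM factors, divided by exon length in kilobases. In the panel DMSO libraries, LAMC1, the gamma chain of most laminin trimers, had the highest level, at 38.0 ± 2.26 CPM per kb (SD, n = 3). ITGB1, the beta partner of most alpha subunits, followed at 37.0 ± 0.574 CPM per kb, which did not differ from LAMC1 beyond that spread. COL6A1, a chain of the beaded filament collagen VI, came next at 17.6 ± 1.75 CPM per kb. ITGA6, the alpha 6 laminin receptor subunit, reached 13.2 ± 0.81 CPM per kb and LAMA3, the laminin alpha 3 chain, 12.2 ± 0.477 CPM per kb. The next group held ITGB5 at 6.97 ± 0.208, ITGAV at 6.7 ± 0.25 and LAMB2 at 6.47 ± 0.752 CPM per kb, whose ranges overlapped. COL4A5, the most abundant network collagen, stood at 4.01 ± 0.19 CPM per kb, and COL1A1, the most abundant fibrillar collagen, at 1.31 ± 0.183 CPM per kb. At the bottom, ITGB8 stood at 0.00378 ± 0.0018 CPM per kb and ITGAM had 0 counts in all 3 panel DMSO libraries. In the panel DMSO cells, COL6A1 made up between 52.2 and 53.8% of the summed length-scaled collagen level and ITGB1 82.8 ± 0.455% of the summed beta subunit level (SD, n = 3). The 28 chains under the count minimum included COL1A2, COL4A1, LAMA2, ITGA4, ITGB3 and ITGB6, so COL1A1 and COL4A2 were expressed while COL1A2, the partner of COL1A1 in type I collagen, reached at most 2 counts and COL4A1, the partner of COL4A2, at most 3 counts in any library.

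**Figure D1:**
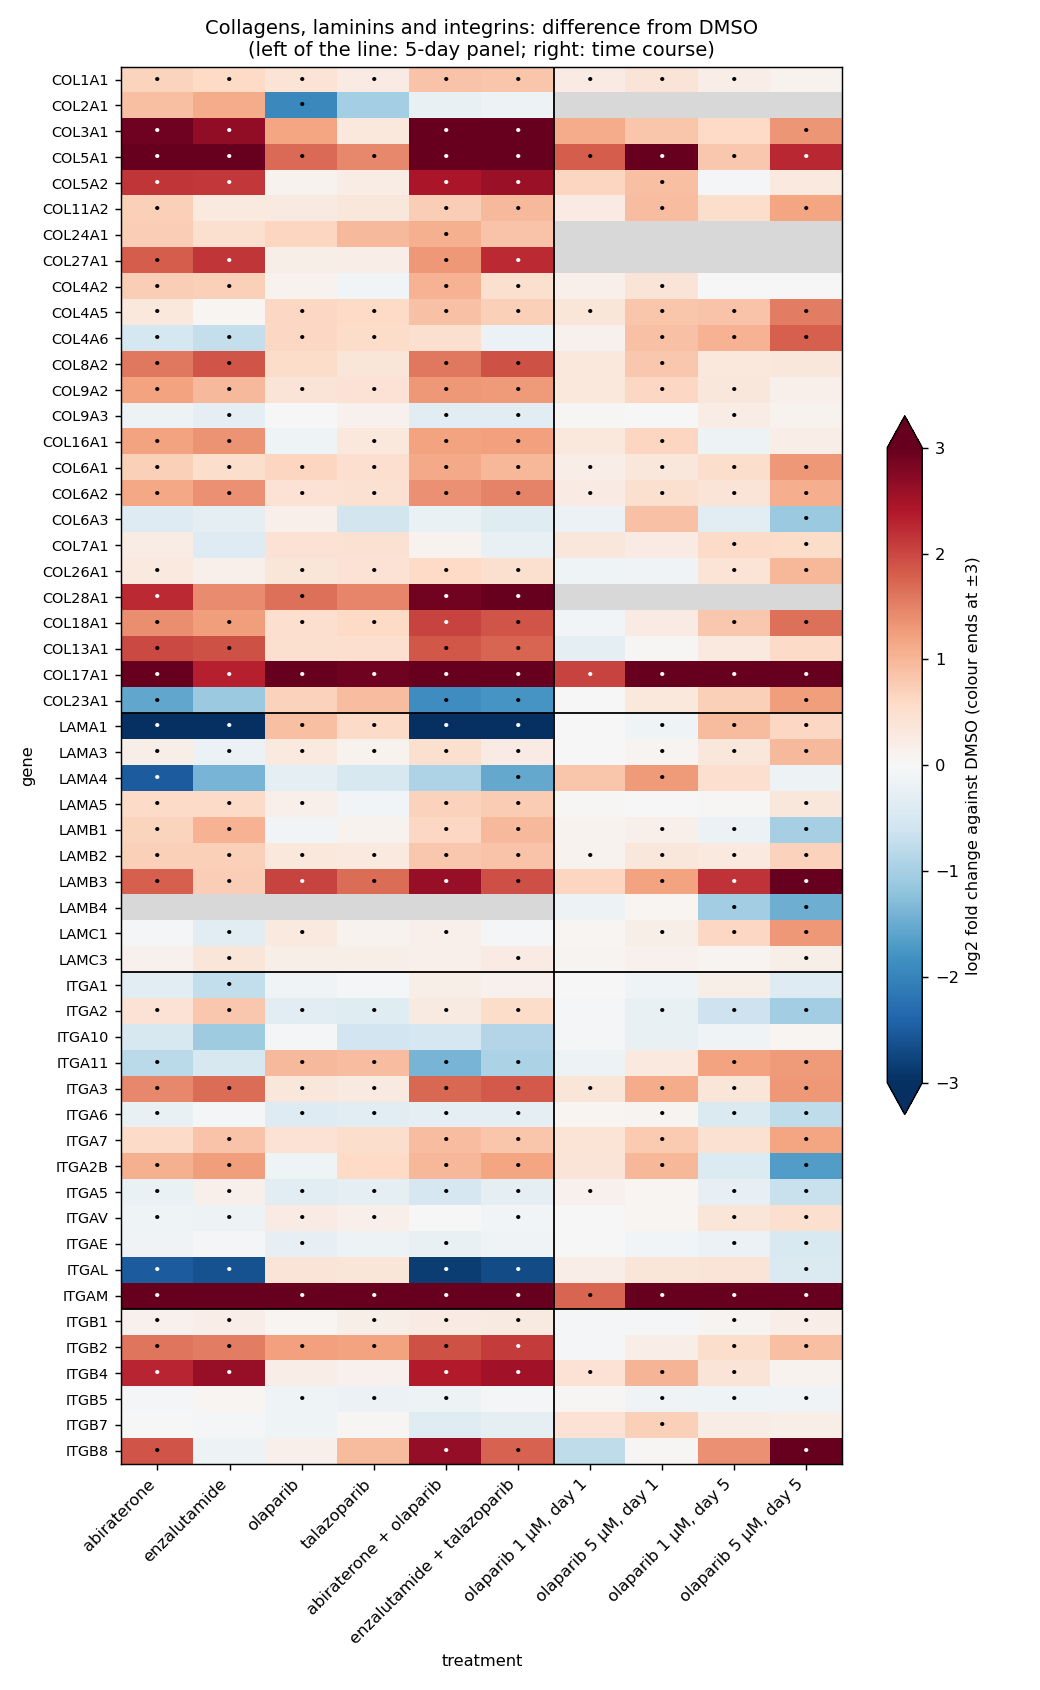
Log2 fold change of each gene (rows, grouped by subfamily) in each of 10 treatments against its own DMSO group (columns), from edgeR's quasi-likelihood fit, with a dot where a gene was called, grey where it was not tested and colours that end at ±3. Of the 20 collagens with at least 10 counts in a panel DMSO library, 14 rose with abiraterone, beside 25.1% of all genes at that minimum. The 14 include COL5A1, which reached that minimum in DMSO replicate C only. LAMA1 and ITGAL stand out below 0 in the 4 columns that contain an ARPi.

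With each ARPi, more of these genes were called higher than lower. A gene was called when edgeR's quasi-likelihood test gave a Benjamini-Hochberg adjusted p under 0.05 over all genes tested. With abiraterone, 31 of 53 tested genes were higher and 9 lower, beside 25.8% of all 18625 tested genes higher and 27.1% lower. With enzalutamide, 27 were higher and 8 lower, beside 27.0% and 26.3% of all genes. These counts include genes that met the expression filter only through treated libraries and so had to differ, and they are not read further. The next counts, by family and for the PARPi and the pairs, are over the 46 tested genes with at least 10 counts in a panel DMSO library, beside 17486 of all genes held to the same minimum. Of the 46, 25 were higher and 9 lower with abiraterone, beside 25.1% and 28.8% of all genes, and the median log2 fold change was 0.375, beside -0.021. With enzalutamide 24 were higher and 8 lower, beside 26.4% and 27.9%, and the median was 0.33, beside -0.001. Of 20 collagens, 14 were higher and 2 lower with abiraterone, with a median of 0.725, and 11 were higher and 2 lower with enzalutamide, with a median of 0.66. The 20 include COL5A1, which reached 10 counts in DMSO replicate C only and passed the expression filter through treated libraries. Of 9 laminin chains, 5 were higher with each ARPi, and 2 were lower with abiraterone and 3 with enzalutamide. Of 17 integrin subunits, 6 were higher and 5 lower with abiraterone, and 8 were higher and 3 lower with enzalutamide.

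Fewer of the genes were called with a PARPi. Of the 46, 19 were higher and 6 lower with olaparib, beside 20.1% and 17.0% of all genes at that minimum, and 19 were higher and 4 lower with talazoparib, beside 18.8% and 16.4%. The medians were 0.28 and 0.26, beside 0.006 and 0.01. Of 20 collagens, 9 were higher with olaparib and 10 with talazoparib, and 1 was lower with olaparib. With abiraterone plus olaparib, 27 genes were higher and 9 lower, beside 29.8% and 33.1%. With enzalutamide plus talazoparib, 27 were higher and 9 lower, beside 30.2% and 33.2%. Without the minimum in DMSO, the counts over 53 genes were 22 and 6, 21 and 4, 34 and 9, and 33 and 9 in the same order, beside 19.6% and 16.0%, 18.4% and 15.4%, 31.1% and 31.1%, and 31.2% and 31.3% of all genes. All 6 panel comparisons use the same 3 DMSO libraries, so they are not independent of each other. By their own calls, LAMA1, ITGAV and COL4A6 were lower with both ARPi and higher with both PARPi, and ITGA2 was higher with both ARPi and lower with both PARPi.

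LAMA1, the laminin alpha 1 chain of the early embryonic basement membrane, had the largest fall. The gene (ENSG00000101680.16) lies on the reverse strand at chr18:6941742-7117797 in GRCh38. Its level in the 3 panel DMSO libraries was 24.7, 27.9 and 30.2 CPM. With abiraterone it was 1.69, 1.84 and 1.14 CPM, and with enzalutamide 1.2, 0.542 and 0.575 CPM. Both ARPi groups lay far below DMSO without overlap. The fall was 17.8-fold with abiraterone (log2 fold change -4.15, SE 0.17, adjusted p = 2.25e-13, edgeR) and 37.8-fold with enzalutamide (-5.24, SE 0.19, adjusted p = 3.24e-14, edgeR). With olaparib it stood at 50.9, 49.7 and 55.2 CPM and with talazoparib at 46.1, 36.3 and 42 CPM. Every PARPi library was above every DMSO library, by 1.88-fold for olaparib (adjusted p = 1.65e-06) and 1.5-fold for talazoparib (adjusted p = 0.000284). With both drugs the level was that of an ARPi: 1.95, 1.57 and 1.63 CPM with abiraterone plus olaparib and 0.8, 1.15 and 1.29 CPM with enzalutamide plus talazoparib.

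The other laminin alpha chains moved in smaller steps. LAMA3, the alpha chain of the laminin of hemidesmosomes, was 171, 175 and 184 CPM in DMSO. Its log2 fold change was 0.17 with abiraterone, -0.18 with enzalutamide and 0.30 with olaparib, all called. The value with talazoparib, 0.10 (adjusted p = 0.0421), was not called without DMSO replicate A or B or talazoparib replicate A or C, with adjusted p from 0.124 to 0.362, nor under total count scaling (adjusted p = 0.324). LAMA5, the alpha chain of the broadly expressed adult laminins, rose 1.49-fold with abiraterone and 1.48-fold with enzalutamide. LAMA5 stood at 55.3, 52.5 and 59 CPM in DMSO and between 76.9 and 90.8 CPM in the 6 ARPi libraries. The call for LAMA5 with olaparib (log2 fold change 0.15) was lost without any one of 5 libraries, DMSO A and B and olaparib A, B and C, with adjusted p from 0.107 to 0.195. LAMA4, the alpha 4 chain typical of vessels and mesenchyme, was at most 0.349 CPM in DMSO and was called lower with abiraterone (adjusted p = 0.00581).

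Among the laminin beta chains, LAMB1 and LAMB2 rose with both ARPi and LAMB3 with every drug. LAMB1, the beta chain of laminin-111 type trimers, was 19.6, 17.2 and 17.3 CPM in DMSO, 28, 27.9 and 30.1 CPM with abiraterone and 38.2, 35.3 and 37.2 CPM with enzalutamide. The groups did not overlap, and the rise was 1.59-fold (adjusted p = 1.19e-12) and 2.05-fold (adjusted p = 3.75e-18). LAMB1 was not called with either PARPi alone (adjusted p = 0.343 with olaparib and 0.169 with talazoparib). LAMB2, the beta chain of mature basement membranes, rose 1.63-fold with abiraterone, 1.64-fold with enzalutamide, 1.24-fold with olaparib and 1.23-fold with talazoparib. LAMB3, a beta chain of the hemidesmosomal laminin, was 0.306, 0.524 and 0.38 CPM in DMSO, which is 9 to 18 counts. It was 1.77, 1.3 and 1.14 CPM with abiraterone and 1.87, 1.69 and 1.4 CPM with olaparib. The rise of LAMB3 was 3.45-fold with abiraterone (adjusted p = 4.05e-07), 4.06-fold with olaparib (adjusted p = 7.09e-08) and 3.18-fold with talazoparib (adjusted p = 3.34e-06). With enzalutamide it was 1.68-fold (adjusted p = 0.0225), a call lost without DMSO replicate A or C or enzalutamide replicate A or C (adjusted p from 0.0622 to 0.0988). The 5 basal markers summed to between 0.553 and 1.15 CPM in panel DMSO, 1.6 and 2.45 CPM with olaparib and 1.4 and 2.07 CPM with talazoparib, above DMSO, and to between 0.378 and 0.572 CPM with abiraterone and 0.488 and 0.689 CPM with abiraterone plus olaparib. Their part in the panel values of LAMB3 and COL17A1 was not tested. LAMC1 fell 1.24-fold with enzalutamide (adjusted p = 3.2e-06) and rose 1.22-fold with olaparib (adjusted p = 2.16e-05). It stood at -0.07 with abiraterone and 0.10 with talazoparib on the log2 scale, neither called.

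Among the fibrillar collagens, COL5A1, COL5A2 and COL1A1 rose with both ARPi. Of all 54 genes, 8 were under 10 counts in each panel DMSO library, COL3A1, COL24A1, COL27A1, COL28A1, COL17A1, LAMB4, ITGAM and ITGB8. Those that met the minimum through the treated groups had to differ, so no count over the fibrillar class is given. COL5A1 (ENSG00000130635.17, chr9:134641803-134844843, forward strand), the main chain of the collagen that starts fibril assembly, had 0, 4 and 10 counts in the DMSO libraries. That is 0, 0.116 and 0.253 CPM, against 2.99, 4.16 and 2.99 CPM with abiraterone and 2.6, 1.91 and 2.68 CPM with enzalutamide. Every ARPi library was above every DMSO library. The fitted rise was 24.6-fold (log2 4.62, SE 0.40, edgeR) and 17.4-fold (4.12, SE 0.405, edgeR), sizes that rest on those few DMSO counts. Only DMSO replicate C reached 10 counts. In the panel the gene passed the expression filter through treated libraries, so these values are a description. With abiraterone plus olaparib COL5A1 reached 5.18, 6.84 and 6.52 CPM. The smaller values with PARPi, 1.71 with olaparib and 1.44 with talazoparib, each depended on single libraries. The olaparib call was lost without DMSO replicate B, olaparib replicate B or olaparib replicate C (adjusted p from 0.051 to 0.0637). The talazoparib call was lost without DMSO replicate A or B or talazoparib replicate A or C (adjusted p from 0.0801 to 0.125).

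COL5A2, the partner chain of COL5A1, was 0.849, 0.466 and 0.937 CPM in DMSO, 3.25, 3.59 and 3.17 CPM with abiraterone and 3.03, 3.44 and 3.33 CPM with enzalutamide. The rise was 4.42-fold (adjusted p = 2.13e-10) and 4.34-fold (adjusted p = 2.43e-10), and neither PARPi alone gave a call. COL1A1, the chain of type I collagen, was 13.7, 10.5 and 11.3 CPM in DMSO and rose 1.6-fold with abiraterone (adjusted p = 4.89e-10), 1.52-fold with enzalutamide and 1.33-fold with olaparib. The 1.19-fold rise with talazoparib (adjusted p = 0.0074) was not called without DMSO replicate B (adjusted p = 0.0953) or talazoparib replicate B (adjusted p = 0.0523). COL3A1, the type III collagen chain, had at most 3 counts in each DMSO library, so only a bound was available: it was at least 5.26-fold higher with abiraterone and at least 4.33-fold higher with enzalutamide, counting the DMSO libraries at a floor of 3 counts each. COL3A1 met the count minimum only through treated libraries and so had to differ, and these bounds are a description. COL27A1, a fibrillar collagen of cartilage, had 2, 7 and 9 counts in DMSO, 21, 19 and 20 with abiraterone and 34, 19 and 33 with enzalutamide. It met the count minimum only through groups given an ARPi and so had to differ, and its values are a description.

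The network collagens did not move as one. COL4A2, a ubiquitous type IV chain, was 3.5, 3.06 and 3.62 CPM in DMSO and rose 1.66-fold with abiraterone (adjusted p = 1.77e-06) and 1.64-fold with enzalutamide (adjusted p = 2.23e-06), with no call for either PARPi. Its neighbour on chromosome 13, COL4A1, whose start lies 1345 bases away, was below the count minimum, as were COL4A3 and COL4A4. COL8A2, a short-chain network collagen, rose 3.01-fold with abiraterone and 3.69-fold with enzalutamide from 0.408, 0.349 and 0.507 CPM. COL4A5, the alpha 5 chain of the specialised type IV network, was 50.2, 46.1 and 46.4 CPM in DMSO. It was 70.1, 75 and 72.8 CPM with olaparib and 72.2, 72.4 and 72.1 CPM with talazoparib. All PARPi libraries were above all DMSO libraries, by 1.53-fold (adjusted p = 2.01e-14) and 1.52-fold (adjusted p = 4e-14). Abiraterone raised COL4A5 1.25-fold (adjusted p = 2.53e-08), and enzalutamide gave 48.9, 47.4 and 51.9 CPM with no call (log2 fold change 0.06).

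COL4A6, the alpha 6 chain that joins the same network, starts beside COL4A5 on the opposite strand. In RefSeq's GRCh38.p14 table the starts of both genes lie 379 bases apart and the windows of 250 bases before each start share 121 bases. COL4A6 was 1.19, 1.75 and 1.57 CPM in DMSO, 2.21, 2.43 and 2.38 CPM with olaparib and 2.38, 2.13 and 2.08 CPM with talazoparib. Both PARPi groups were above DMSO, by 1.55-fold (adjusted p = 0.0179) and 1.45-fold (adjusted p = 0.0455). With abiraterone it was 0.726, 0.921 and 1.48 CPM, which overlaps DMSO (log2 fold change -0.54, adjusted p = 0.047), and with enzalutamide 0.667, 1.11 and 0.934 CPM (-0.72, adjusted p = 0.00758). The olaparib call was lost without DMSO replicate A or olaparib replicate B or C (adjusted p from 0.0519 to 0.1), and the talazoparib call without DMSO replicate A or C or any talazoparib replicate (0.0707 to 0.193). The abiraterone call was lost without DMSO replicate B or C or abiraterone replicate A or B (0.105 to 0.288) and under 4 other settings, and the enzalutamide call without enzalutamide replicate A (0.0556). The windows are shown because they overlap between the starts of a pair of genes that moved in one direction with the PARPi, written 5′ to 3′ on the strand of each gene, with CCAAT on either strand in capitals (RefSeq, GRCh38.p14, chrX:108439588-108439837 for COL4A5 on the forward strand and chrX:108439459-108439708 for COL4A6 on the reverse strand).
COL4A5: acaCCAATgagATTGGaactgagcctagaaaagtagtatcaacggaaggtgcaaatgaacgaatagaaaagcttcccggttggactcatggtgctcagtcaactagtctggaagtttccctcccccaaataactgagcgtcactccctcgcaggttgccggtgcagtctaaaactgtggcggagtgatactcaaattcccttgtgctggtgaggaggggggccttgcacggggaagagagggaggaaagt
COL4A6: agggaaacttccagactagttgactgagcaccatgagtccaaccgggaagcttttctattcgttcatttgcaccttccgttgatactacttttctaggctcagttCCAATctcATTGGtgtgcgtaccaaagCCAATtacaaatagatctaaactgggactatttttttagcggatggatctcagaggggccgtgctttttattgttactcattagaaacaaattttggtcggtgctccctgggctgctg
The letters CCAAT occurred in the windows of 9 of the 41 genes that the RefSeq table holds, 22.0%, and in 32.0% of all 35116 windows of the same length.

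The FACIT chains COL9A2 and COL16A1 were higher with each ARPi. COL9A2, a chain of the fibril-associated type IX collagen, rose 2.3-fold with abiraterone (3.29, 2.24 and 2.63 CPM in DMSO against 6.19, 6.29 and 6.19 CPM) and 1.96-fold with enzalutamide. Its calls with olaparib (0.38 on the log2 scale) and talazoparib (0.43) each failed when 1 of several libraries was left out. For olaparib these were DMSO B and C and olaparib B and C (adjusted p from 0.0523 to 0.204), and for talazoparib DMSO B and talazoparib B and C (0.0602 to 0.116). COL9A3, its partner, was 12.9, 12.5 and 12.4 CPM in DMSO and 10.0, 10.7 and 10.4 CPM with enzalutamide, without overlap, and fell 1.21-fold (adjusted p = 0.00129). COL16A1, a FACIT chain of skin and smooth muscle, was between 2.96 and 3.26 CPM in DMSO, 7.61, 6.83 and 7.05 CPM with abiraterone and 7.97, 6.46 and 9.29 CPM with enzalutamide. It rose 2.3-fold with abiraterone and 2.54-fold with enzalutamide, and no ARPi library was as low as a DMSO library.

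COL6A1 and COL6A2, which pair in collagen VI, rose with all 4 single drugs. COL6A1 was 108, 89.6 and 94.8 CPM in DMSO and rose 1.63-fold with abiraterone, 1.44-fold with enzalutamide, 1.57-fold with olaparib and 1.42-fold with talazoparib. With abiraterone plus olaparib it reached 195, 223 and 229 CPM, all above the highest DMSO library. COL6A2 was 16, 13.1 and 14.1 CPM in DMSO, 31.4, 33 and 31.4 CPM with abiraterone and 40.2, 35.2 and 36.7 CPM with enzalutamide, rises of 2.23-fold (adjusted p = 8.18e-15) and 2.6-fold (adjusted p = 5.6e-17). Olaparib raised COL6A2 1.34-fold and talazoparib 1.36-fold. COL6A3, the remaining classical chain, was not called in any of the 6 panel comparisons with DMSO. COL18A1, the basement membrane multiplexin that holds endostatin, was 3.8, 3.58 and 3.52 CPM in DMSO and rose 2.63-fold with abiraterone (adjusted p = 1.4e-11), 2.37-fold with enzalutamide, 1.43-fold with olaparib and 1.5-fold with talazoparib. With abiraterone plus olaparib it stood at 14.5, 14.5 and 15.3 CPM.

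The transmembrane collagens were low in untreated cells. COL23A1, the most abundant of them per length in DMSO, was 0.272, 0.349 and 0.304 CPM in DMSO and 0.0581, 0.127 and 0.123 CPM with abiraterone, a 2.97-fold fall (adjusted p = 0.0214) that was lost without DMSO replicate B (0.0607) or abiraterone replicate A (0.102). It was 0.0651, 0.103 and 0.0725 CPM with abiraterone plus olaparib, a 3.66-fold fall (adjusted p = 0.00714), and rose 2.38-fold with 5 µM olaparib at day 5 of the time course (adjusted p = 0.00416). COL13A1, a collagen of cell junctions, rose 3.92-fold with abiraterone and 3.77-fold with enzalutamide from 0.34, 0.175 and 0.279 CPM. COL17A1 (ENSG00000065618.21, chr10:104031286-104085880, reverse strand), the hemidesmosomal collagen of basal keratinocytes, had 3, 0 and 1 counts in panel DMSO. Against a floor of 3 counts in each DMSO library it was at least 4.12-fold higher with abiraterone, at least 2.41-fold with enzalutamide, at least 5.62-fold with olaparib and at least 3.65-fold with talazoparib. With abiraterone plus olaparib it was 3, 1.96 and 1.99 CPM, at least 26.2-fold higher, and with enzalutamide plus talazoparib at least 12.7-fold higher. COL17A1 met the count minimum only through treated libraries and so had to differ, and these bounds are a description. The windows of 250 bases before the starts of COL17A1 and COL5A1 are shown because COL17A1 had the largest rise of the time course, and COL5A1 the largest of the panel, among genes averaging 100 counts or more in the higher group (RefSeq, GRCh38.p14, chr10:104085881-104086130 on the reverse strand and chr9:134641553-134641802 on the forward strand). In the COL17A1 window the capitals mark the TATA box letters TATAAA. They also mark the reverse strand match of CCAAT, which reads as its reverse complement, and a match to the p53 half-site. In the COL5A1 window they mark the androgen receptor half-site letters AGAACA. They also mark the GC box letters GGGCGG on either strand.
COL17A1: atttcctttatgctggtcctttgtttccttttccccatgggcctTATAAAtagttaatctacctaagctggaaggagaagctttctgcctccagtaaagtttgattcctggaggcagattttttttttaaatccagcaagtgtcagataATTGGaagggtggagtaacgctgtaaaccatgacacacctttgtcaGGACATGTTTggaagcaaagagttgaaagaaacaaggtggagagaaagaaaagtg
COL5A1: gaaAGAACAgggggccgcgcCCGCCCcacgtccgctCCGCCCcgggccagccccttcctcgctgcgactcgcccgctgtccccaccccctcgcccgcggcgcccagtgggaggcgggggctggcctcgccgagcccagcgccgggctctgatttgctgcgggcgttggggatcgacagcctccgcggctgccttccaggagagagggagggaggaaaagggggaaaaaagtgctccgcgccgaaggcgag
The p53 half-site matched in 1 of the 41 windows, 2.44%, beside 5.57% of all 35116, and AGAACA in 3, 7.32%, beside 12.4%. TATAAA occurred in 12.2% beside 10.7% and the GC box in 53.7% beside 42.6%. Both strands were searched, and a match of letters describes the sequence and shows no binding.

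The integrin subunits of a ligand class did not all move one way. Among the laminin-binding alpha subunits, ITGA3 was 8.08, 7.19 and 6.69 CPM in DMSO, 20.5, 19.9 and 19.4 CPM with abiraterone and 20.9, 23.4 and 24.8 CPM with enzalutamide. It rose 2.74-fold (log2 1.45, SE 0.08, adjusted p = 4.46e-18) and 3.18-fold (1.67, SE 0.07, adjusted p = 4.3e-20). Olaparib raised ITGA3 1.26-fold, and the 1.2-fold value with talazoparib was lost without DMSO replicate C, talazoparib replicate B or talazoparib replicate C (adjusted p from 0.0569 to 0.0948). ITGA6 moved the other way: it was 93.4, 88.8 and 82.6 CPM in DMSO and 66.5, 66.6 and 69.3 CPM with olaparib, a 1.31-fold fall (adjusted p = 2.71e-10). ITGA6 fell 1.26-fold with talazoparib and 1.17-fold with abiraterone and was not called with enzalutamide (-0.03). ITGA7, the muscle laminin receptor subunit, rose 1.8-fold with enzalutamide (adjusted p = 0.00884), a call lost without DMSO replicate B (0.0994) or enzalutamide replicate C (0.0971).

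ITGA2, the alpha subunit of the epithelial collagen receptor, had opposite calls for the drug classes. It was 25.9, 27.6 and 25.7 CPM in DMSO, 34.3, 37.6 and 34.7 CPM with abiraterone and 47.2, 45 and 45.9 CPM with enzalutamide. It was 21.3, 20.6 and 20.6 CPM with olaparib and 19.8, 20.6 and 21.5 CPM with talazoparib, so no group overlapped DMSO. The changes were rises of 1.34-fold (adjusted p = 6.25e-08) and 1.74-fold (8.98e-15) and falls of 1.27-fold (1.61e-05) and 1.28-fold (9.75e-06). ITGA11, the fibroblast collagen receptor subunit, rose 1.97-fold with olaparib and 1.9-fold with talazoparib from 0.849, 0.873 and 0.861 CPM. ITGA11 fell 1.76-fold with abiraterone (adjusted p = 0.0157), which was not called without abiraterone replicate A (0.0502). Among RGD-binding subunits, ITGA5, the fibronectin receptor subunit, was 39.6, 34.6 and 34.9 CPM in DMSO, 32.6, 30.1 and 31.4 CPM with abiraterone, 31.2, 28.2 and 28.0 CPM with olaparib and 30.3, 30.0 and 29.3 CPM with talazoparib. It fell 1.16-fold with abiraterone, 1.24-fold with olaparib and 1.21-fold with talazoparib. Its 1.11-fold rise with enzalutamide was lost without DMSO B or C or enzalutamide A or C (adjusted p from 0.108 to 0.124). ITGAV, the vitronectin receptor subunit, was 125, 129 and 135 CPM in DMSO and 152, 160 and 151 CPM with olaparib, a 1.19-fold rise (adjusted p = 8.84e-08). Its falls with abiraterone (1.09-fold, not called under total count scaling, adjusted p = 0.158) and enzalutamide (1.12-fold) were small. ITGA2B, the platelet fibrinogen receptor subunit, rose 2.1-fold with abiraterone and 2.38-fold with enzalutamide.

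ITGB4, the hemidesmosomal partner of ITGA6, had the largest rise among beta subunits that DMSO cells express. The gene (ENSG00000132470.14) lies on the forward strand at chr17:75721328-75757818. Its level was 2.45, 2.15 and 1.52 CPM in DMSO, 11.2, 10.2 and 8.01 CPM with abiraterone and 13.4, 12.4 and 11.5 CPM with enzalutamide. Every ARPi library was above every DMSO library, by 4.88-fold (log2 2.29, SE 0.14, adjusted p = 4.82e-15) and 6.15-fold (2.62, SE 0.14, adjusted p = 8.48e-17). Neither PARPi alone gave a call (0.20 and 0.13). ITGB1, expressed far above the others, was 539, 546 and 529 CPM in DMSO and rose 1.09-fold with abiraterone and 1.15-fold with enzalutamide. ITGB2, the common leukocyte beta subunit, rose 3.02-fold, 2.88-fold, 2.36-fold and 2.29-fold with abiraterone, enzalutamide, olaparib and talazoparib from 0.849, 0.728 and 0.76 CPM. Its alpha partner ITGAL was 3.02, 2.47 and 2.28 CPM in DMSO, 0.61, 0.349 and 0.4 CPM with abiraterone and 0.6, 0.33 and 0.359 CPM with enzalutamide. ITGAL therefore fell while ITGB2 rose, by 5.63-fold (adjusted p = 1.04e-09) and 6.14-fold (adjusted p = 2.99e-10), with no call for a PARPi. The 6 leukocyte markers summed to between 0.233 and 0.608 CPM in panel DMSO, 0.381 and 0.581 CPM with abiraterone, 0.448 and 1.1 CPM with enzalutamide, 0.916 and 1.24 CPM with olaparib and 0.844 and 0.954 CPM with talazoparib. The PARPi groups did not overlap with DMSO. Over all libraries PTPRC reached at most 47 counts, LYZ 61, CSF1R 10, CD14 6 and CD3E 1. Their part in the values of ITGB2 and ITGAL was not tested. ITGB5, the vitronectin receptor beta subunit, was 44.6, 44.6 and 47.0 CPM in DMSO, 41.7, 41.8 and 41.6 CPM with olaparib and 41.1, 39.8 and 40.4 CPM with talazoparib. It fell 1.09-fold with olaparib, a call lost without DMSO replicate C (adjusted p = 0.112), and 1.12-fold with talazoparib.

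**Figure D2:**
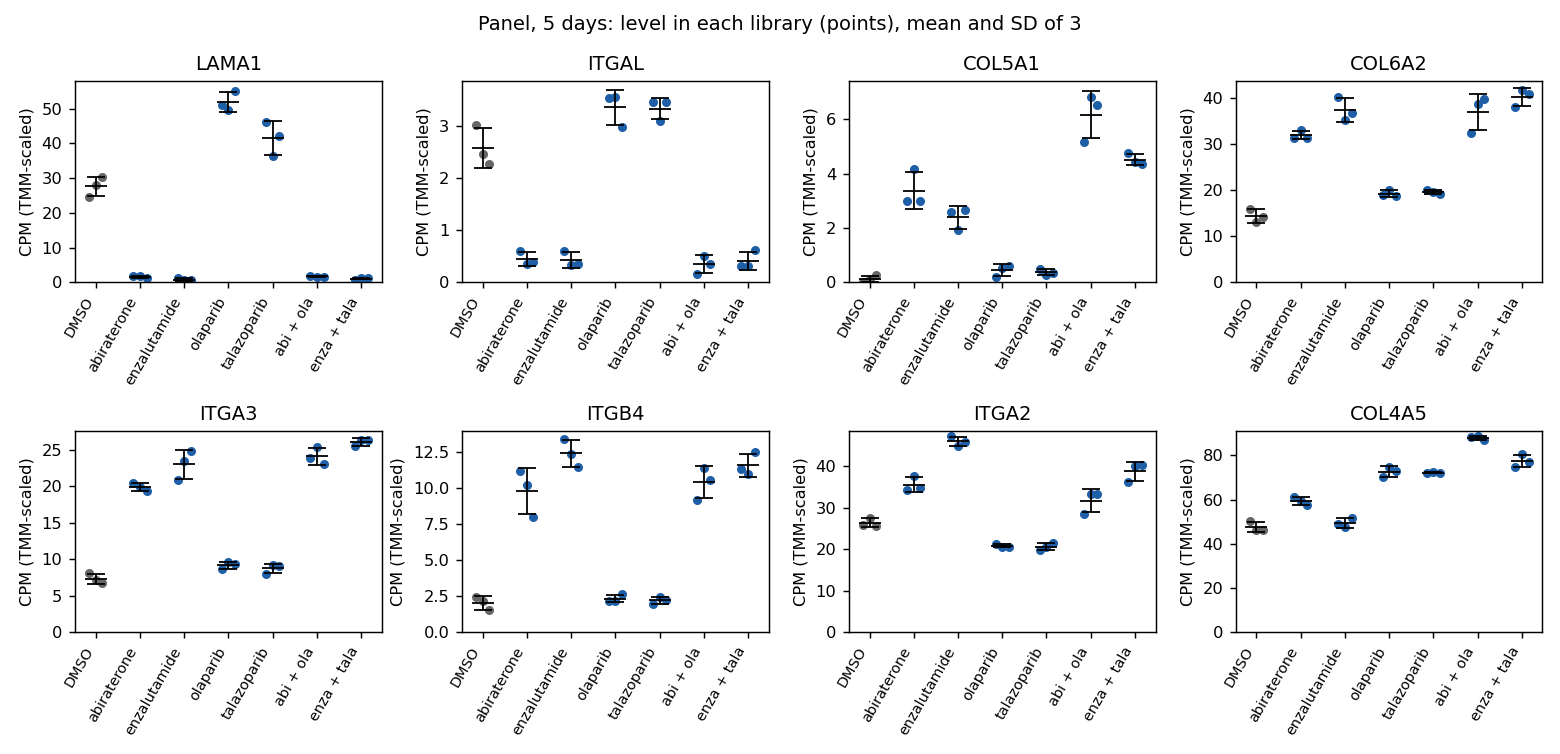
TMM-scaled CPM on a linear axis in each panel library (points) of 8 genes by treatment, with the mean and SD of 3 libraries as lines. LAMA1 and ITGAL drop in every group that holds an ARPi, ITGB4, ITGA3, COL5A1 and COL6A2 rise there, ITGA2 is above DMSO with ARPi and below it with PARPi, and COL4A5 sits at 70.1 to 75 CPM with either PARPi against 46.1 to 50.2 CPM in DMSO.

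Summed over chains, the length-scaled collagen level was 33.3 ± 2.8 CPM per kb in panel DMSO, 52.9 ± 2.22 with abiraterone and 48.6 ± 1.84 with enzalutamide (SD, n = 3). It was 48.1 ± 1.63 in the olaparib libraries and 45.9 ± 2.85 in the talazoparib libraries. For the pairs it was 68.7 ± 4.21 CPM per kb where abiraterone was combined with olaparib, and 63.6 ± 3.84 where enzalutamide was combined with talazoparib. The 8 fibroblast markers summed to between 5.65 and 6.86 CPM in DMSO, 7.15 and 8.26 CPM with abiraterone, 5.1 and 6.89 CPM with enzalutamide, and 8.92 and 10.3 CPM with abiraterone plus olaparib. They summed to between 7.92 and 8.61 CPM with olaparib, 7.08 and 9.56 CPM with talazoparib and 9.58 and 9.71 CPM with enzalutamide plus talazoparib, each above DMSO. The 5 endothelial markers, mostly VWF, summed to between 14.0 and 16.5 CPM in DMSO, 20.8 and 21.3 CPM with abiraterone, 20.2 and 22.7 CPM with abiraterone plus olaparib and 11.6 and 12.8 CPM with enzalutamide. Of these lists, LUM, DCN, FAP and KDR reached at most 2 counts in any library. Their part in the collagen values was not tested. Within the laminin alpha chains, LAMA1 went from 9.73 ± 0.609% of the summed level in DMSO to 0.497% with abiraterone and 0.293% with enzalutamide, while LAMA5 went from 21.8 ± 0.769% to 29.6 ± 0.852% and 34.7 ± 0.838%. ITGB4 went from 0.675% of the beta subunit level in DMSO to 2.95% with abiraterone and 3.53% with enzalutamide.

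The drugs of a class differed for some genes. Enzalutamide and abiraterone differed for 14 of the 46 genes with 10 counts in a panel DMSO library, 9 higher with enzalutamide and 5 lower, beside 20.9% of all genes at that minimum. Without the minimum it was 15 of 53, beside 19.8% of all 18625 genes, where 1822 were higher and 1872 lower with enzalutamide. LAMB1 was 1.29-fold higher with enzalutamide (adjusted p = 1.54e-06) and ITGA2 1.3-fold higher (adjusted p = 2.12e-06). LAMA3 was 1.27-fold lower (adjusted p = 3.06e-07) and COL4A5 1.2-fold lower (adjusted p = 5.58e-06) with enzalutamide than with abiraterone. LAMA1 was 2.13-fold lower with enzalutamide (adjusted p = 0.0207), a call lost without abiraterone replicate A or B or enzalutamide replicate B or C (0.0797 to 0.0991). Talazoparib and olaparib differed for 7 of the 46, beside 8.87% of all genes at that minimum and 8.36% without it. LAMC1 was 1.14-fold lower with talazoparib (adjusted p = 0.0104, lost without talazoparib replicate B at 0.0548 or C at 0.0551). ITGB1 was 1.08-fold higher (adjusted p = 0.00216) and LAMA3 1.14-fold lower (adjusted p = 0.00264) with talazoparib. For LAMA1 the difference of talazoparib from olaparib was -0.33 on the log2 scale (95% interval -0.52 to -0.13) and was not called (adjusted p = 0.0541). The doses were single and set per drug, so the comparison is of these doses.

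Each pair was also compared with its ARPi alone. Abiraterone plus olaparib against abiraterone gave 19 calls among the 46 genes with the minimum in DMSO, 16 higher and 3 lower, beside 30.4% of all genes at that minimum. Enzalutamide plus talazoparib against enzalutamide gave 23 calls, 18 higher and 5 lower, beside 35.8%. Of all 18625 tested genes, without the minimum, 2691 were higher and 2745 lower in the first comparison and 3077 and 3337 in the second. Without the minimum the counts were 21 and 27 of 53, beside 29.2% and 34.4%, and they are not read further. COL4A5 rose 1.48-fold over abiraterone (adjusted p = 1.44e-13) and 1.57-fold over enzalutamide (adjusted p = 2.15e-15). COL18A1 rose 1.55-fold (adjusted p = 2.54e-05) and 1.56-fold (adjusted p = 1.23e-05). COL17A1, not among the 46, had 15, 9 and 12 counts with abiraterone and 92, 76 and 55 with abiraterone plus olaparib, and 7, 8 and 9 counts with enzalutamide and 57, 56 and 31 with enzalutamide plus talazoparib. LAMA3 rose 1.25-fold (4.8e-07) and 1.34-fold (3.38e-09), and ITGA5 fell 1.23-fold (8.89e-05) and 1.35-fold (3.91e-08). LAMA1 was not called in either of these comparisons.

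Interaction terms measured departures from adding the effects of the single drugs on the log2 scale, and their shares of calls were near those of all genes. The abiraterone by olaparib interaction was called for 5 of the 46 genes, beside 13.6% of all genes at that minimum and 12.8% without it. They were ITGA6 at 0.35, LAMB2 at -0.22, ITGB2 at -0.93, LAMB3 at -1.19 and ITGA11 at -1.55. LAMB3 and ITGB2 were not called without abiraterone replicate A (adjusted p = 0.0696 and 0.0502), and LAMB2 was lost without DMSO B or C, olaparib A or abiraterone plus olaparib A (0.0569 to 0.097). The enzalutamide by talazoparib interaction was called for 6 of the 46, beside 13.3% of all genes at that minimum and 12.6% without it, at 0.32 for LAMA3, 0.28 for LAMA5, 0.89 for ITGA1, -0.34 for COL6A2, -1.39 for ITGA11 and -0.10 for ITGB1. Of these 6, LAMA3 and ITGA11 were called whichever library was left out. The values were of both signs. ITGA11 was above DMSO with either PARPi, and was 0.13, 0.413 and 0.435 CPM with abiraterone plus olaparib and 0.36, 0.495 and 0.498 CPM with enzalutamide plus talazoparib.

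In the time course, each dose was compared with DMSO of the same day. At day 1, 1 µM olaparib raised 11 of 50 tested genes and lowered 0, beside 6.30% and 9.52% of all 18502 genes, and 5 µM raised 26 and lowered 3, beside 21.6% and 23.4%. The count of 0 lower genes at 1 µM came from edgeR, beside 0 lower at an unadjusted p under 0.05 and 0 by DESeq2. At day 5, 1 µM raised 24 and lowered 7, beside 23.4% and 22.9%, and 5 µM raised 27 and lowered 10, beside 34.4% and 33.9%. Over the 46 tested genes with at least 10 counts in a time course DMSO library, the same comparisons gave 9 higher and 0 lower (beside 6.23% and 9.74% of all 18093 genes at that minimum), 24 and 3 (21.4% and 24.0%), 22 and 7 (23.0% and 23.4%) and 23 and 10 (33.5% and 34.6%). The medians over these genes were 0.11, 0.299, 0.335 and 0.306 in that order, beside -0.002, 0.011, -0.006 and -0.02 over all genes at that minimum. COL5A1 is among the 46 through day 5 DMSO replicates 1 and 3 only. At 5 µM for 5 days the median was 0.564 over 19 collagens, 0.48 over 10 laminin chains and 0.05 over 17 integrin subunits. In DMSO alone, 10 genes were higher at day 5 than at day 1 and 4 lower, beside 11.1% and 13.4% of all genes and 11.3% and 13.7% of those at that minimum. The largest of these was LAMA5, 1.29-fold lower (adjusted p = 2.04e-10).

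COL17A1 was higher with dose in the time course. It had at most 3 counts in each day 1 DMSO library and was 0.132, 0.0812 and 0.0772 CPM in DMSO at day 5. After 5 days it was 1.29, 0.84 and 0.893 CPM with 1 µM and 12.9, 12.1 and 13.3 CPM with 5 µM, without overlap. The fitted fold was 9.9 and 125 (log2 6.97, SE 0.21). The gene was under 10 counts in every DMSO library and met the minimum only through treated groups, so it had to differ and these values are a description. At day 1 it was already at least 3.27-fold higher with 1 µM and at least 15.8-fold higher with 5 µM. LAMB3 rose from 0.595, 0.542 and 0.386 CPM in DMSO at day 5 to 2.41, 2.36 and 2.12 CPM with 1 µM and 5.24, 4.66 and 4.78 CPM with 5 µM. The 5 µM rise was 9.53-fold (adjusted p = 7.89e-18). COL17A1 belongs to hemidesmosomes and LAMB3 to the laminin they bind. ITGB4, the integrin of that junction, was not called at 5 µM for 5 days (0.11). ITGB4 rose 2.03-fold with 5 µM at day 1 (adjusted p = 1.81e-07), from 1.53, 2.15 and 1.85 CPM to 3.82, 3.82 and 3.64 CPM, and the difference between the days was called (-0.92, adjusted p = 0.000344). The 5 basal markers summed to between 0.677 and 1.04 CPM in DMSO at day 5, between 2.01 and 2.37 CPM with 1 µM and between 3.18 and 4.46 CPM with 5 µM, without overlap, with KRT5 and TP63 at 2 counts or fewer everywhere. Their part in the rise of COL17A1 and LAMB3 was not tested.

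LAMC1, LAMA3 and LAMB2 were higher with 5 µM olaparib at day 5. LAMC1 was 286, 279 and 271 CPM in DMSO at day 1 and 316, 313 and 311 CPM with 5 µM, and at day 5 it was 318, 301 and 297 CPM in DMSO, 455, 469 and 479 CPM with 1 µM and 741, 775 and 742 CPM with 5 µM. The day 5 groups were ordered by dose without overlap, with rises of 1.53-fold (adjusted p = 1.62e-16) and 2.47-fold (adjusted p = 1.25e-24). LAMA3 rose from 162, 163 and 160 CPM to 316, 319 and 317 CPM with 5 µM at day 5, or 1.96-fold (adjusted p = 1.72e-29). LAMB2 was already higher with 5 µM at day 1, at 46.8, 45 and 44.5 CPM against 34.7, 36.4 and 36.3 CPM in DMSO (adjusted p = 5.74e-10), and rose 1.63-fold at day 5 (adjusted p = 5.53e-20). LAMB1 went the other way, from 19.2, 20 and 19.3 CPM to 10.2, 9.18 and 9.68 CPM, a 2.01-fold fall (adjusted p = 2.97e-18), after a 1.12-fold rise at day 1 (adjusted p = 0.00773). LAMA1 was the exception to the dose order. It stood at 38.6, 38.5 and 39 CPM with 1 µM at day 5 and at 29.5, 31.3 and 32 CPM with 5 µM, both above the 20.2, 19.4 and 20.4 CPM of DMSO, and 5 µM was 1.25-fold below 1 µM (adjusted p = 3.07e-08). At day 1 LAMA1 was not called with 1 µM (adjusted p = 0.988).

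Among collagens, COL4A5 and COL4A6 rose together with dose. At day 5 COL4A5 was 36.9, 39.3 and 40.8 CPM in DMSO, 69.9, 71.1 and 71.1 CPM with 1 µM and 114, 112 and 114 CPM with 5 µM. COL4A6 was 0.881, 1.52 and 1.39 CPM, 2.68, 2.36 and 2.65 CPM, and 4.26, 3.62 and 5.15 CPM in the same order. Neither gene's groups overlapped, and the 5 µM rises were 2.91-fold (adjusted p = 4.51e-32) and 3.47-fold (adjusted p = 1.45e-11). COL6A1 rose 2.46-fold (adjusted p = 1.93e-26), COL6A2 2.14-fold (1.84e-17), COL18A1 3.17-fold (3.26e-17) and COL26A1, a collagen-like matrix protein, 2.01-fold (1.28e-14) with 5 µM at day 5. In the edgeR fit COL5A1 rose 11.6-fold at day 1 with 5 µM and 4.81-fold at day 5. Of the DMSO libraries, only day 5 replicates 1 and 3 reached 10 counts. The gene passed the expression filter through treated libraries, so these values are a description. At day 1 the 8 fibroblast markers summed to between 5.85 and 6.42 CPM in DMSO and 9.62 and 10.2 CPM with 5 µM, without overlap, and their part in the day 1 values was not tested. The call for the smaller rise of COL5A1 with 1 µM at day 5 was lost without DMSO replicate 1 or 2 or olaparib replicate 1 or 3 (adjusted p from 0.0535 to 0.188). COL6A3 was variable in DMSO at day 5, at 3.42, 5.9 and 8.85 CPM. Its 2.18-fold fall with 5 µM was lost without DMSO replicate 2 or 3 or olaparib replicate 1 or 2 (0.0539 to 0.152).

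Among 17 integrin subunits with at least 10 counts in a time course DMSO library, 6 rose and 7 fell with 5 µM at day 5, beside 33.5% of all genes at that minimum higher and 34.6% lower. ITGA2 was 20.1, 20.4 and 20.6 CPM in DMSO, 13.2, 14 and 12.6 CPM with 1 µM and 9.6, 10.4 and 9.51 CPM with 5 µM, a 2.07-fold fall at the higher dose (adjusted p = 4.27e-19). ITGA6 went from 83.5, 83.2 and 81.6 CPM to 46.3, 50.7 and 48.4 CPM with 5 µM, a 1.71-fold fall (adjusted p = 2.06e-21). ITGA5 fell 1.6-fold (4.61e-15). ITGA3 rose 2.47-fold (8.41e-20) and ITGAV 1.4-fold (4.65e-09), and ITGB1 rose 1.14-fold (6.47e-10). ITGA2B changed direction between days: it was 0.739, 0.849 and 0.546 CPM in DMSO and 1.66, 1.39 and 1.19 CPM with 5 µM at day 1. At day 5 it was 0.705, 0.542 and 0.823 CPM in DMSO and 0.252, 0.112 and 0.281 CPM with 5 µM. It rose 1.98-fold at day 1 (adjusted p = 0.00101) and fell 3.18-fold at day 5 (adjusted p = 1.71e-05), and the interaction with day was -2.65 (adjusted p = 5.53e-07). ITGAM, a leukocyte alpha subunit, was at least 6.31-fold higher at day 1 and at least 4.74-fold higher at day 5 with 5 µM, against DMSO libraries at or below the floor of 3 counts. It met the count minimum only through treated libraries and so had to differ, and these bounds are a description. The 6 leukocyte markers summed to between 0.568 and 0.702 CPM in DMSO and 0.458 and 0.819 CPM with 5 µM at day 1. At day 5 they summed to between 0.566 and 0.839 CPM in DMSO, 1.49 and 1.7 CPM with 1 µM and 1.49 and 1.82 CPM with 5 µM, above DMSO, and their part in the ITGAM values was not tested.

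Of the 46 genes with the minimum in a time course DMSO library, the effect of olaparib depended on day for 18 with 1 µM, beside 30.2% of all genes at that minimum, and for 30 with 5 µM, beside 55.5%. At day 5 the doses differed for 27 of them, 18 higher and 9 lower with 5 µM, beside 53.9%. Without the minimum the counts were 18, 32 and 30 of 50 genes, beside 29.8%, 54.9% and 53.6% of all genes. Between the doses at day 5, 4914 of all 18502 genes were higher and 4995 lower with 5 µM.

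**Figure D3:**
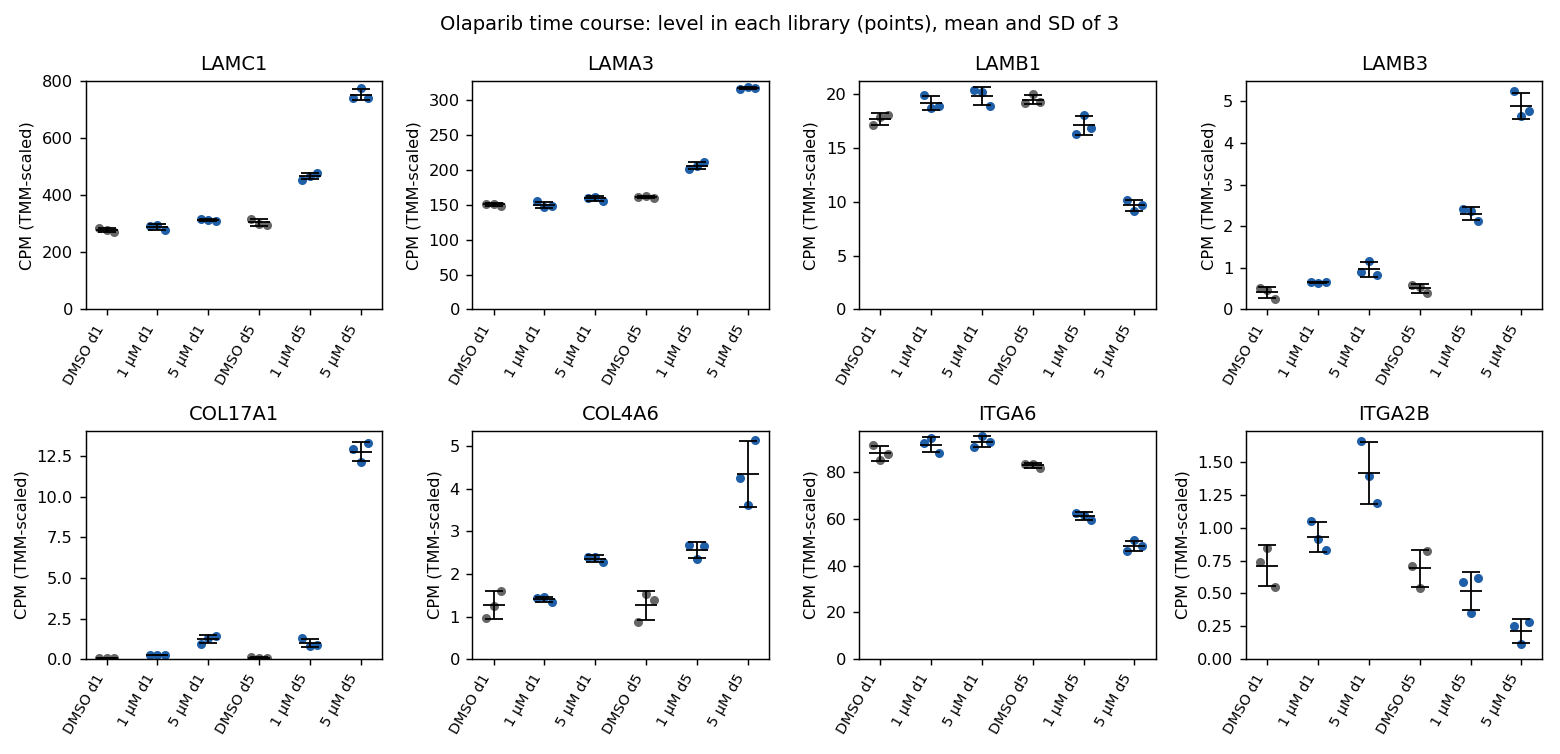
TMM-scaled CPM on a linear axis in each time course library (points) of 8 genes by dose and day, with the mean and SD of 3 libraries as lines. LAMC1, LAMA3, LAMB3, COL17A1 and COL4A6 rise with dose at day 5, LAMB1 and ITGA6 fall, and ITGA2B is above DMSO with 5 µM at day 1 and below it at day 5.

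The chain make-up shifted with these changes. At day 5, LAMB1 made up 15.1 ± 0.441% of the summed length-scaled laminin beta level in DMSO and 4.78 ± 0.263% with 5 µM, while LAMB3 went from 1.57% to 9.65 ± 0.586% and LAMB2 from 82.6 ± 0.644% to 85.4 ± 0.822% (SD, n = 3). Among alpha chains, LAMA3 went from 69.4 ± 0.701% to 77.0 ± 0.481% and LAMA5 from 22.6 ± 1.05% to 16.1 ± 0.413%. LAMC1 held 96.4 ± 0.349% of the gamma level in DMSO and 98.3 ± 0.127% with 5 µM. The summed gamma level went from 37.5 ± 1.22 to 90.7 ± 2.23 CPM per kb, the alpha level from 16.1 ± 0.287 to 28.5 ± 0.163 and the beta level from 6.94 ± 0.336 to 10.9 ± 0.0927 CPM per kb. Among integrin alpha subunits, ITGA6 went from 42.4 ± 0.616% to 30.1 ± 0.614% and ITGAV from 21.3 ± 0.481% to 36.1 ± 0.302%, so ITGAV was the larger with 5 µM. The summed integrin alpha level was 29.2 ± 0.419 in DMSO and 24.1 ± 0.584 CPM per kb with 5 µM. The summed collagen level was 31.1 ± 1.15, 44.2 ± 0.42 and 71.3 ± 2.39 CPM per kb with DMSO, 1 µM and 5 µM. COL6A1 alone held 55.4 ± 1.31%, 56.0 ± 0.0597% and 59.5 ± 0.157% of it, so the sum mostly follows that gene. The 8 fibroblast markers summed to between 5.55 and 6.12 CPM in DMSO at day 5, between 6.56 and 8.63 CPM with 1 µM and between 9.71 and 11.1 CPM with 5 µM, without overlap, and their part in these values was not tested.

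**Figure D4:**
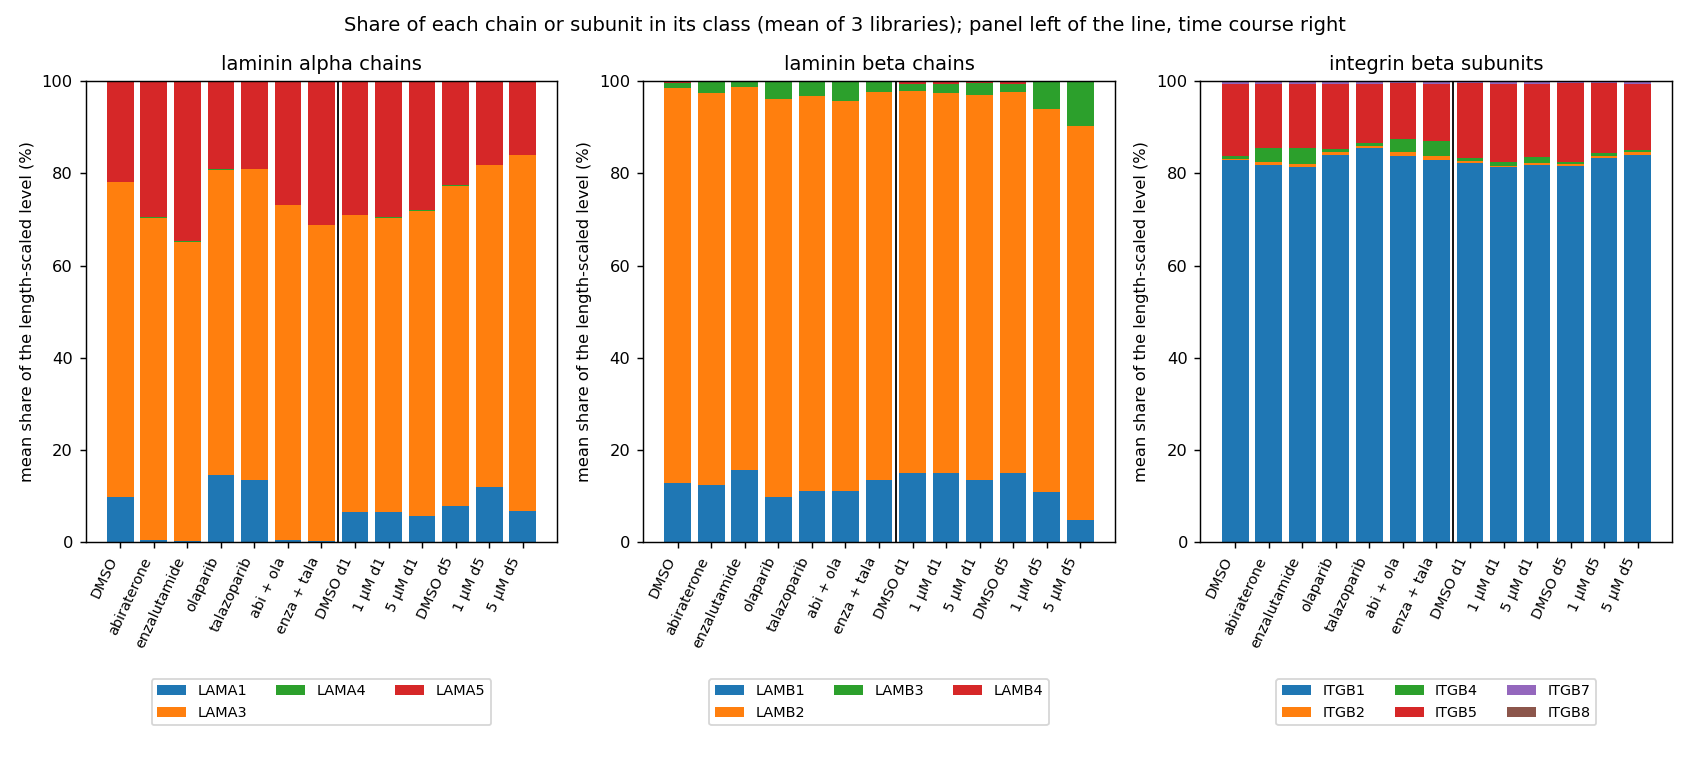
Share of the summed length-scaled level (percent, stacked bars, group means of 3 libraries) held by each laminin alpha chain, laminin beta chain and integrin beta subunit in the 13 groups. LAMA1 holds 9.73% of the alpha level in panel DMSO and under 1% with either ARPi alone, and LAMB3 takes 9.65% of the beta level with 5 µM olaparib at day 5.

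Treatment with 1 µM olaparib for 5 days was measured in both experiments, each with its own DMSO libraries. In the separate fits, 45 genes with at least 10 counts in a DMSO library of each experiment were tested in both, 39 had the same sign and 23 were called in both. Over all 17228 genes held to that minimum, 78.6% had the same sign and 31.0% were called in both. Without the minimum 43 of 49 had the same sign and 25 were called in both, beside 78.2% and 30.2% of 17960 genes. Of the 23, 18 were higher and 5 lower in both, the lower ones being ITGA2, ITGA5, ITGA6, ITGAE and ITGB5, and 0 were called in opposite directions. ITGAE, the alpha subunit of the epithelial lymphocyte integrin, was 20.5, 18.8 and 18 CPM in panel DMSO and 16.0, 16.2 and 15.8 CPM with olaparib, without overlap. LAMA1 was 1.88-fold higher in the panel and 1.94-fold in the time course, LAMB3 4.06-fold and 4.48-fold, and ITGA2 1.27-fold and 1.53-fold lower. In a joint fit of both experiments, the effect differed between them for COL4A5 (0.26 on the log2 scale larger in the time course, adjusted p = 0.0025) and LAMC1 (0.35, adjusted p = 0.000541), 2 of 54 genes, beside 1.94% of all 19392 genes tested.

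**Figure D5:**
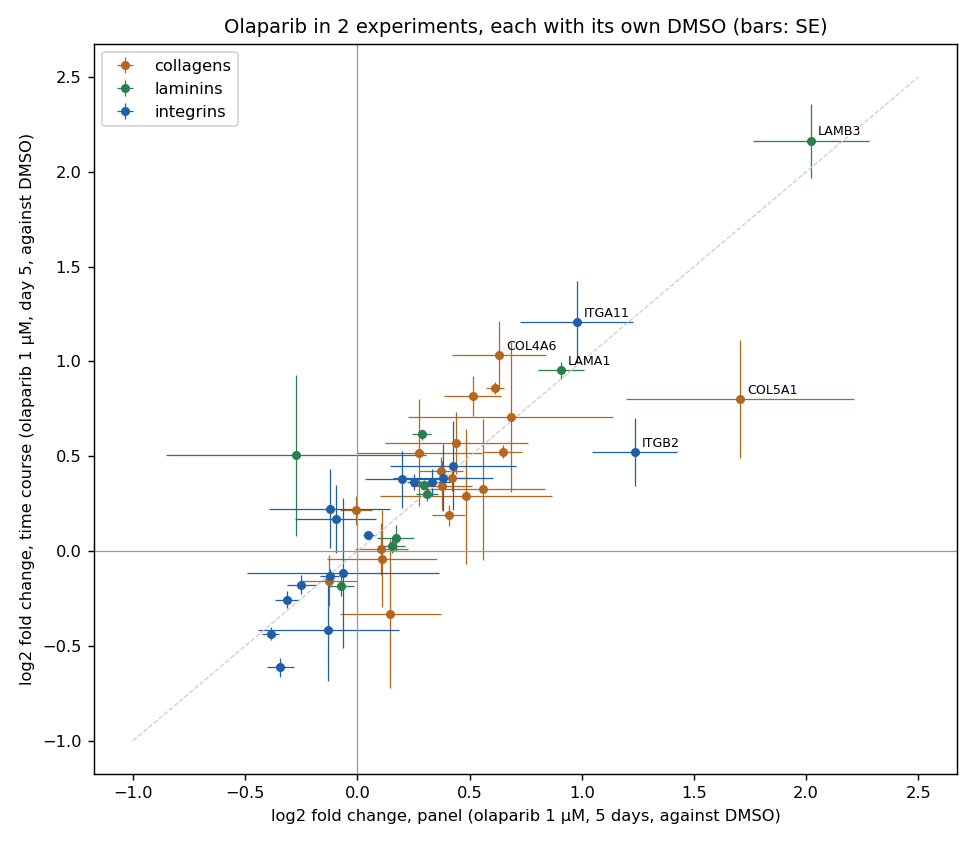
Log2 fold change with 1 µM olaparib for 5 days in the panel (x axis) and in the time course (y axis), with bars of 1 SE, for 45 genes coloured by family, and a dashed line of equal values. Most points lie in the quadrants where the sign is the same, and 4 genes with 3 or fewer counts in each DMSO library of either the panel or day 5 of the time course are left out.

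The other genes of the pathway moved in more than one direction. The lists of partners were chosen with results of these data known, and they are counted over genes with at least 10 counts in a DMSO library of the experiment, a restriction chosen after seeing the data. The counts stand beside 25.1% of all genes at that minimum higher and 28.8% lower with abiraterone, 26.4% and 27.9% with enzalutamide, 20.1% and 17.0% with olaparib and 18.8% and 16.4% with talazoparib. Of 23 genes that modify and assemble collagen, 4 rose and 10 fell with abiraterone, 7 rose and 9 fell with enzalutamide, and 7 rose and 4 fell with olaparib. LOX, the oxidase that starts collagen crosslinks, fell by 3.645 on the log2 scale with abiraterone (SE 0.15, adjusted p = 1.6e-17) and by 3.67 with enzalutamide (SE 0.15, adjusted p = 8.54e-18), and was not called with olaparib (adjusted p = 0.163). PCOLCE, the enhancer of procollagen cleavage, rose by 1.16 and 1.59 with the ARPi. Of 6 basement membrane partners, 2 rose and 2 fell with each ARPi, and 3 rose with olaparib and 2 with talazoparib. HSPG2, which encodes perlecan, rose by 0.46 with abiraterone. PXDN, the enzyme that crosslinks type IV collagen, rose by 0.93 with olaparib and 0.95 with talazoparib. Of 10 other matrix glycoproteins, 4 rose and 3 fell with abiraterone and 3 rose and 1 fell with olaparib. FN1, fibronectin, rose by 1.75 with abiraterone, 0.93 with enzalutamide and 0.54 with olaparib. THBS1, thrombospondin 1, fell by 0.90 and 1.98 with the ARPi and rose by 1.41 and 0.945 with the PARPi. With abiraterone plus olaparib it rose by 0.44, and with enzalutamide plus talazoparib it fell by 1.23.

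On the receptor side, 33 adaptors of integrin adhesions met the minimum in DMSO. With abiraterone 13 rose and 6 fell, with olaparib 20 rose and 4 fell, and with 5 µM olaparib for 5 days 23 rose and 8 fell. The shares of all genes at that minimum higher and lower were 25.1% and 28.8%, 20.1% and 17.0%, and 33.5% and 34.6% in these comparisons. TNS1, a tensin that links integrins to actin, rose by 2.355 and 2.40 with the ARPi and by 1.21 and 1.31 with the PARPi. NEDD9, a docking protein of focal adhesions, rose by 2.31 and 2.01 with the ARPi. FYN, a kinase recruited to integrins, fell by 1.45 with olaparib and 1.47 with talazoparib and rose by 1.22 with enzalutamide. Of 9 other collagen and laminin receptors, 7 rose and 1 fell with each ARPi, against 5 and 2 with olaparib. BCAM, a receptor for laminin alpha 5, rose by 1.725 with abiraterone and 1.59 with enzalutamide, and SDC4, a syndecan, by 1.46 and 1.80. Of 16 matrix proteases and inhibitors, 12 rose and 1 fell with abiraterone and 12 rose and 2 fell with enzalutamide. TIMP2, a metalloprotease inhibitor, rose by 1.83 and 1.80 with the ARPi and by 0.57 and 0.61 with the PARPi.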

How the data were processed

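C4-2B cells were profiled by stranded mRNA sequencing in 39 libraries, 3 in each of 13 groups. The authors trimmed and aligned the reads to GRCh38 with STAR and quantified them with Salmon on GENCODE 45, and the deposited table holds estimated counts per gene, given as whole numbers by a rounding not described. Gene identifiers were matched to symbols through GENCODE 44 (62666 matched, and 521 with 0.12% of counts did not). The tests used the robust quasi-likelihood fit of edgeR 4.0.16 (R 4.3.3) after its expression filter by group and TMM scaling, separately for the panel, the time course and, for olaparib at 1 µM for 5 days, both together, with Benjamini-Hochberg adjustment over all genes. Log2 fold changes and standard errors come from that fit. CPM was computed from the totals scaled by TMM factors and divided by exon length to compare genes. Replicates of a group differed by more than counting error, with a chi-square per degree of freedom from 2.18 to 6.03. The highest was panel DMSO A against C. Replicate 3 of the 5 µM day 1 group stood at 5.99 and 5.87 against replicates 1 and 2, which gave 2.28 between them. Totals between 26932205 and 49833473 counts per library limit genes near the floor of 3 counts.

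All 54 genes were accounted for and any could be named. The genes shown with library values, in 1 or more of their comparisons, were chosen by rule: the 4 largest rises and 4 largest falls of each comparison with DMSO, among called genes whose higher group averaged 100 counts or more, the most abundant gene of each subfamily and the neighbouring type IV collagen genes. Other lists were represented by called genes of large change with at least 100 counts. The genes and lists were chosen with earlier results of these data known. The script was tested on simulated counts: of 200 changed genes among 18085, edgeR called 159, with 11 unchanged genes, for abiraterone against DMSO. For the abiraterone by olaparib interaction it called 123 of 200, with 2 unchanged genes. The simulation used a single dispersion for all genes. In the data 9853 of 18625 genes were called with abiraterone, so it does not test scaling when that many genes change. Alternatives were DESeq2 1.42.0, RLE and total count scaling, no filter, a CPM of at least 1 in 3 libraries, only the groups compared, a replicate block, and leaving out each library.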

Additional observations from a re-analysis of the deposited data

Results flagged for a closer look

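The groups hold 3 libraries each, too few for a test of single outlying libraries. These results stood out because the effect of olaparib differed between days or experiments, by the interaction term of edgeR's quasi-likelihood fit. With 1 µM olaparib the effect depended on day for 18 of 50 genes, beside 29.8% of all genes. LAMB3 (1.517 on the log2 scale) and ITGA11 (1.351) had larger effects at day 5. With 5 µM it depended on day for 32 genes, beside 54.9% of all genes.

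The 5 µM effect was more positive at day 5 for COL17A1 (2.698), LAMB3 (2.042), COL18A1 (1.408), LAMC1 (1.13) and COL26A1 (1.112). It was more positive also for ITGB8 (3.231). ITGB8 and COL17A1 met the count minimum only through treated libraries, so their values are a description. It was more negative at day 5 for ITGA2B (-2.654), COL6A3 (-1.994), LAMB4 (-1.523), COL5A1 (-1.275) and LAMB1 (-1.169). The COL6A3 value was -1.467 (adjusted p = 0.0353) without replicate 3 of the 5 µM day 1 group, which stood at 8.33 CPM beside 3.48 and 3.68 CPM. The COL5A1 value was not called without day 1 DMSO replicate 3 (adjusted p = 0.052). COL5A1 passed the expression filter through treated libraries, so its value is a description. Between the panel and the time course, the effect of 1 µM olaparib at 5 days differed for 2 genes, COL4A5 (0.262) and LAMC1 (0.345), both larger in the time course.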

How the results depend on the processing

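No called result reversed direction under an alternative that gave it a value. Of the 498 called, the stricter filter gave a value for 443 and the fit of only the groups compared for 470. Of 498 called gene results, 123 lost the call under at least 1 alternative: 119 when a library was left out, 36 without the filter, 32 with DESeq2, 26 with total count scaling, 23 when only the groups compared were fitted, 9 with the replicate block, 8 with RLE and 6 with the stricter filter. The number of genes called moved by more than 1.5 times for talazoparib against DMSO when only the groups compared were fitted (16 against 25) and for 1 µM olaparib at day 1 with DESeq2 (7 against 11). With a library left out the number called ranged from 2 to 9 for talazoparib against olaparib, 3 to 7 for the abiraterone by olaparib interaction, 3 to 9 for the enzalutamide by talazoparib interaction, 6 to 11 for 1 µM olaparib at day 1 and 8 to 12 for DMSO at day 5 against day 1. The causes were not tested. Total count scaling moved the median of all genes most, by -0.131, for the 5 µM by day interaction (-0.153 against -0.022 with TMM). Among the 54 genes it gave 11 higher and 2 lower for DMSO over time (10 and 4 otherwise) and 4 and 2 for the enzalutamide by talazoparib interaction (3 and 3 otherwise). Over all genes it moved the split of higher and lower calls by more than 10 percentage points in these comparisons: abiraterone (5863 and 3905, against 4803 and 5050 with TMM), olaparib (2885 and 3829, against 3655 and 2983), talazoparib (2553 and 3831, against 3435 and 2865), 1 µM at day 1 (1598 and 1069, against 1166 and 1762), 5 µM at day 1 (5139 and 3380, against 3997 and 4336), 5 against 1 µM (3881 and 6146, against 4914 and 4995), the 1 µM by day interaction (2148 and 3597, against 2883 and 2627), the 5 µM by day interaction (3450 and 6926, against 5035 and 5121), DMSO over time (2620 and 1924, against 2055 and 2481) and the enzalutamide by talazoparib interaction (1216 and 944, against 991 and 1355). Replicate numbers did not pair libraries: the mean correlation of deviations between libraries of the same number was -0.006 in each experiment, and 3 of 21 and 3 of 18 libraries correlated best with their own number. Restricting the counts to genes with 10 counts in a DMSO library of the experiment, chosen after seeing the data, left between 5 genes called (the abiraterone by olaparib interaction) and 36 (either pair against DMSO). With the replicate block, 40 genes were called for abiraterone, 27 for olaparib (28 without it) and 44 for abiraterone plus olaparib (43 without it). Genes with few counts in DMSO, such as COL5A1, COL17A1 and ITGAM, are limited by depth.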
